A study of Mus musculus with 30 samples.

Results

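The regions bound by Ikaros in cultured mouse pre-B cells were compared between wild-type cells (WT) and cells with the G158R substitution on both copies of Ikzf3, the gene of Aiolos (homo). The members were all regions of the 2 deposited Ikaros lists from pre-B cells: 3683 regions in WT and 8609 in homo, 12292 of the 24749 regions in the 8 lists of the series. Both lists came from C57BL/6 bone marrow, with 1 chromatin immunoprecipitation (ChIP) library each, Ikzf3+/+ for WT and Ikzf3m/m for homo, precipitated with an anti-Ikaros antibody. The growth protocol given for the WT library describes B220+ IgM− marrow cells grown on Tst-4 stromal cells with 10 to 20 ng/ml IL-7, 10 ng/ml SCF and 10 ng/ml Flt3L. No such text was given for the homo library. With 1 library per genotype the ChIP comparison has no replicate check, so it is given as counts, shares and ranks with no test. The read depth of the ChIP libraries is unknown, and a difference in depth or in enrichment between the 2 libraries cannot be told apart from a difference between genotypes. RNA was read in sorted, uncultured pre-B cells of the same strain, 3 libraries each of WT, het (G158R on 1 copy) and homo.

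Ikaros, encoded by Ikzf1, and Aiolos, encoded by Ikzf3, are zinc finger transcription factors of the lymphoid lineages. They bind DNA with an N-terminal group of zinc fingers that recognises a GGGAA core, and pair with themselves and with each other through a C-terminal group. In pre-B cells they are known for limiting proliferation, for the switch from pre-B cell receptor signalling to light chain rearrangement, and for recruiting the NuRD chromatin complex. G158R lies in the DNA-binding zinc fingers of Aiolos, and the labels name no change in Ikaros itself.

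The bases of the regions themselves were not used here, but regions that cover a promoter can be shown through the RefSeq promoter of the gene (GRCm38.p6, the assembly of mm10). The following 7 promoters, the 250 bases before the start read 5′ to 3′ on the gene's strand, were chosen after their values were seen, among promoters outside any annotated gene. In all of them capitals mark TGGGAA, the core of the Ikaros family motif, and CCGGAA, the core of the ETS family motif, each on either strand. A promoter was taken as under a region when at least 150 of 300 bases (250 before to 50 after the start) lay in it. Marked letters can thus lie outside the region. The first 3 lay under shared regions, which are regions of one list that overlap a region of the other by at least 1 base. They are the promoters of Tmem59l (chr8:70487349-70487598, minus strand), Etv6 (chr6:134035450-134035699, plus strand), an ETS family repressor, and Spred2 (chr11:19924192-19924441, plus strand), an inhibitor of Ras signalling.
Tmem59l: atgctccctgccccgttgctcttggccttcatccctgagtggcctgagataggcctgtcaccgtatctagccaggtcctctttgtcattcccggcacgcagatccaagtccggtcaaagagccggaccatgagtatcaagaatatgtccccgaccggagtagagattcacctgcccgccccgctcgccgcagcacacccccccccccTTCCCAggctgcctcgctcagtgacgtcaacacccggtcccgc
Etv6: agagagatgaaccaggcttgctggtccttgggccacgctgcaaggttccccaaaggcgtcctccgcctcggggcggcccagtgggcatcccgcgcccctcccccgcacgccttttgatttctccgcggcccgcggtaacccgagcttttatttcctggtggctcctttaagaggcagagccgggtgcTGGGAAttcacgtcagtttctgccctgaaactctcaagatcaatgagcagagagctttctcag
Spred2: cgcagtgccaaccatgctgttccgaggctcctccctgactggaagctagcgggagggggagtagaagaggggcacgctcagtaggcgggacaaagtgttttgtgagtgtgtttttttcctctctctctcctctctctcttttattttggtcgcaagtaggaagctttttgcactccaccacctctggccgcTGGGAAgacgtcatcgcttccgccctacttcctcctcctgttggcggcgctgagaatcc
The remaining 4 lay under regions called in homo only: Socs1 (chr16:10785537-10785786, minus strand), a feedback inhibitor of cytokine receptors, Cstf3 (chr2:104590234-104590483, plus strand), a subunit of the mRNA 3′ end cleavage machinery, Chaf1a (chr17:56040166-56040415, plus strand), a histone chaperone of replicating chromatin, and Gabarapl2 (chr8:111940453-111940702, plus strand), a protein of autophagosome formation.
Socs1: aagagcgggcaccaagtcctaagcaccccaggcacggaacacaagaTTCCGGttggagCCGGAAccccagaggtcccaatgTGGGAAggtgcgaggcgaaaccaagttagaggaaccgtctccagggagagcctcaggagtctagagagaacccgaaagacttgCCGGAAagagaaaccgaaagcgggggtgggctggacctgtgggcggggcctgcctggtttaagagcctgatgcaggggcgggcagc
Cstf3: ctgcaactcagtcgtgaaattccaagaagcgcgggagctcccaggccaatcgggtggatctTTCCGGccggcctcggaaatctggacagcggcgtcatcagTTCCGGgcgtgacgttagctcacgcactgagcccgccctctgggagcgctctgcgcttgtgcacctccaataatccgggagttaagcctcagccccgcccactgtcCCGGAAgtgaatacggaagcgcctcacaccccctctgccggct
Chaf1a: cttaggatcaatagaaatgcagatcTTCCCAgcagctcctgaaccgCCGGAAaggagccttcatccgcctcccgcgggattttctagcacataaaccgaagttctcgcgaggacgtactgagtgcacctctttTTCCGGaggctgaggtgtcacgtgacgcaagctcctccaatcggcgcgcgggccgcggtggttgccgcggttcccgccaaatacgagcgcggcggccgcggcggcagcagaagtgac
Gabarapl2: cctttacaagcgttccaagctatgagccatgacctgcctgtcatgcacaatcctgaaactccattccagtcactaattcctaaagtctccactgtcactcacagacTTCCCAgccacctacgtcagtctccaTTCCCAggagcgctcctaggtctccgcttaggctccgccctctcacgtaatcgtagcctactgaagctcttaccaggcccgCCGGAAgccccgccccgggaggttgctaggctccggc
The Socs1 and Cstf3 stretches hold 3 ETS cores each, Chaf1a 2 and Gabarapl2 1. Ikaros cores are in both sets: 1 in each of the 3 shared promoters, 1 in Socs1, 1 in Chaf1a and 2 in Gabarapl2. The Tmem59l core lies outside both of its regions, which cover 166 (WT) and 182 (homo) of the 300 promoter bases. For Cstf3 the homo region covers 183 of the 300, so at least 1 marked core of Cstf3 lies outside it. The 3 shared promoters shown hold no ETS core, and they were picked from a class in which 25% of promoters hold one. The shares of all promoters with these letters are given after the regions.

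The homo list was longer than the WT list, and nearly all WT regions were within it. It had 2.34 times as many regions and covered 3823 kb against 1433 kb in WT, 2.67 times as much. Of the WT regions, 3488 (94.7%, 95% Clopper-Pearson interval 93.9% to 95.4%) overlapped a homo region and 195 (5.29%, 4.59% to 6.07%) did not. Of the homo regions, 3477 (40.4%, 39.3% to 41.4%) overlapped a WT region and 5132 (59.6%, 58.6% to 60.7%) did not. These intervals and those below treat regions as independent and cover counting error only. The WT-only and homo-only classes depend on what the caller passed in the other list, since signal under its threshold is in neither list.

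Width and fold separated the classes. The fold is the authors' own enrichment per region, and it was used only to describe or rank regions within a list. In the homo list, shared regions had a median fold of 6.8 and a median width of 472 bases, and homo-only regions a median fold of 4.24 and a median width of 285 bases. In the WT list, shared regions had a median fold of 5.33 and a width of 327 bases, and WT-only regions 3.99 and 237 bases. No WT-only region had a fold of 10 or more, while 427 shared regions of the WT list did, and the highest WT-only fold was 7.55. Wide regions were more frequent in homo, with 428 over 1000 bases against 72 in WT.

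When each list was divided into deciles by fold, the share of WT regions with a homo partner was 77.8% in the lowest decile and 100% in each of the highest 2. The share of homo regions with a WT partner ran from 7.43% in the lowest decile to 91.5% in the highest. The lowest decile of the homo list thus held 797 homo-only regions and the highest 73.

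**Figure D1:**
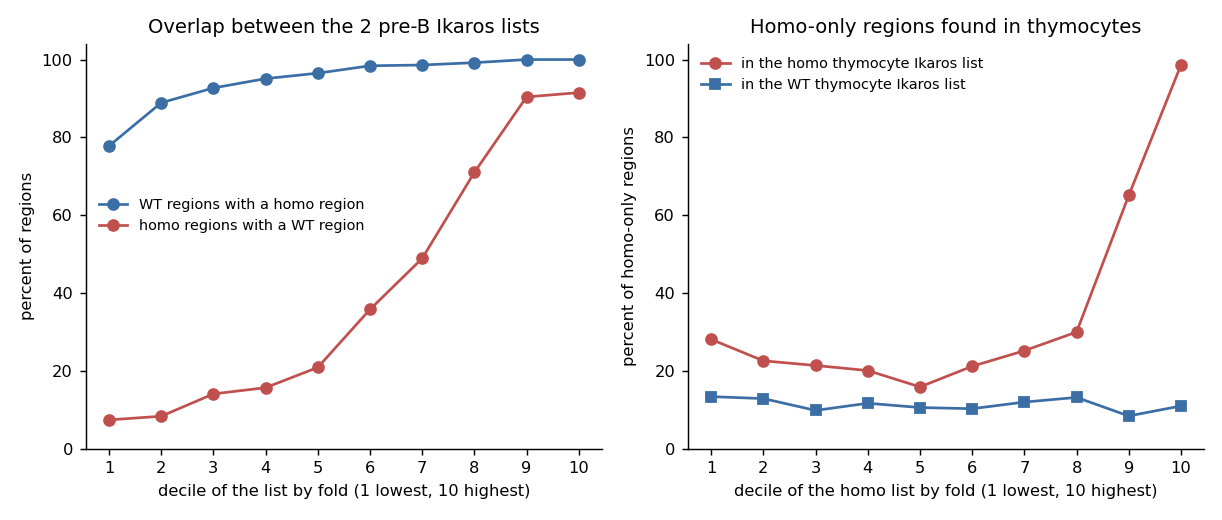
Left, percent of regions with a partner in the other pre-B Ikaros list (y axis) by decile of the list's own fold (x axis), from 77.8% to 100% for WT and from 7.43% to 91.5% for homo. Right, percent of the homo-only regions of each decile of the homo list that were also in the homo or WT Ikaros list of thymocytes, where the homo thymocyte points rise to 98.6% in the highest decile and the WT points stay between 8.43% and 13.4%.

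Shared regions kept much of their order. Among the 3466 regions that paired with exactly 1 region of the other list, the fold had a Spearman correlation of 0.781 across regions and the width one of 0.698, given as a description since regions of 1 library are not replicates. Of the 346 pairs in the top decile by WT fold, 248 (71.7%) were in the top decile by homo fold. The homo region was the wider one in 3069 pairs (88.5%), with median widths of 326 bases in WT and 471 bases in homo. The WT region lay wholly inside the homo region in 2428 pairs (70.1%).

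**Figure D2:**
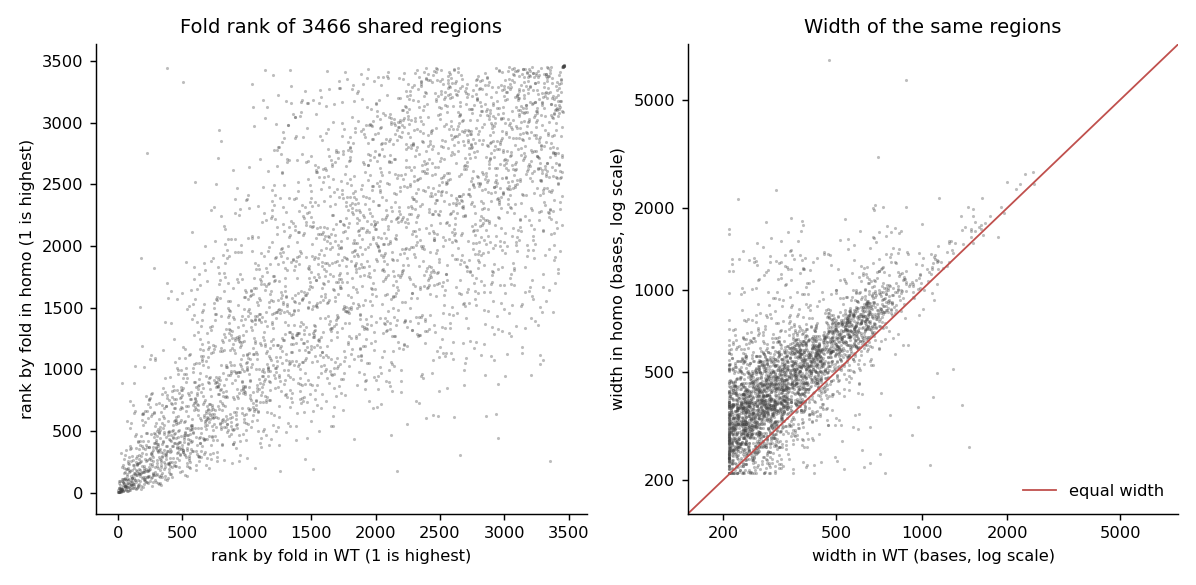
Each point is 1 of the 3466 paired regions. Left, rank by fold in WT (x axis) against rank in homo (y axis), with rank 1 the highest fold and a Spearman correlation of 0.781; right, width in bases on log axes with the line of equal width, above which 3069 points lie.

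The strongest shared regions of the WT list also had high folds in the homo list and were present in thymocytes. The highest fold of the WT list, 30.2, was at chr5:141017796-141018779, between genes and 4310 bases from the start of the long non-coding RNA gene Gm38729. Its homo partner had a fold of 33.6. The next were chr7:27688811-27689632 in Zfp607b, a zinc finger gene, with 28.1 in WT and 34.4 in homo, and chr6:87503586-87504409 in Arhgap25, a GTPase-activating protein of blood cells, with 28.1 and 24.6. The remaining 2 of the top 5 were chr19:33101255-33102094 at an end of Gm29863, with 27.1 and 33.8, and chr16:11686119-11688058 in Snx29, with 26.6 and 18.4. All 5 were also in the WT and the homo Ikaros lists of thymocytes, and the one in Snx29 was in both WT Aiolos lists. The WT-only regions reached no such values: the top 5 had folds between 6.12 and 7.55 and ranks between 824 and 1313 in the WT list. They lay near Gm32080 (chr11:20040937-20041201), near Gm25207 (chrX:15640475-15640910), in Ralgapa2 (chr2:146407350-146407638), in Arpc3 (chr5:122395487-122395779) and near Gm32328 (chr6:51123442-51123718).

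Some shared regions changed place within their lists. The region in Plagl1, a zinc finger gene that is expressed from the paternal copy (chr10:13090837-13091201), ranked 2658 of the 3466 pairs by fold in WT and 303 in homo. The region at the start of Rps19, a protein of the small ribosomal subunit (chr7:24884169-24884756), ranked 2170 and 172. A region 29868 bases from the start of Rasgrf1, a Ras exchange factor (chr9:89879594-89879907), ranked 1451 and 270. In the other direction, the region near Cox17, a copper chaperone (chr16:38353081-38353679), ranked 225 in WT and 2756 in homo, and the region in Axin2, a Wnt pathway feedback gene (chr11:108918103-108918811), 181 and 1901. The region near Fasl, the gene of Fas ligand (chr1:161801097-161801703), ranked 282 and 1820. The remaining regions with such shifts were in Gm1604a near Tagap (3352 and 254, with a width of 470 bases in WT and 6976 in homo), in Zfp316 (1511 and 191), in Amdhd1 (174 and 1503) and in Il16 (186 and 1186). These regions were chosen for their shift in rank among the strong regions of one list, so they describe 2 libraries.

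Most homo-only regions had a low fold, and a few were among the highest of the list. Of the 5132, 1099 had a fold of 5 or more and 66 a fold of 10 or more, the latter a threshold set after the folds were seen. The strongest region of the whole homo list was homo only: chr15:79461272-79463716, 2445 bases wide and in the non-coding gene Gm41359, with a fold of 35.7. The next homo-only regions were chr10:40645715-40647385 in Ddo, the D-aspartate oxidase gene (fold 29.2, rank 7), chr17:86424843-86425567 in Prkce, a protein kinase C gene (26.6, rank 13), chr8:12130749-12134617 between genes (25.3, rank 18) and chr6:145418206-145418975 in Lmntd1 (20.3, rank 60). Other homo-only regions with a fold of 10 or more, chosen after their values were seen, lay at the starts of Stk32c, a kinase (20.2), Ddx20, an RNA helicase (15.4), Gys1 and Ruvbl2, which share a promoter (11.2), Pef1, a calcium-binding protein (11.4), and Bola2 and Slx1b, another shared promoter (10.1). The one at Bsg, the gene of basigin (14.7), lay over a gene end whose strand the reference does not give. The 66 are a range of fold and not a type of region.

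The strong homo-only regions recurred in the other homo lists. All 66 (100%, 94.6% to 100%) overlapped a region of the homo Ikaros list of thymocytes, which held 8221 regions. In the WT thymocyte Ikaros list, which held 3572, 8 of the 66 (12.1%, 5.38% to 22.5%) had an overlap. A longer list gives more room for overlaps, and the part of list length in these shares was not tested. In the lists of the Aiolos antibody, 54 of the 66 (81.8%, 70.4% to 90.2%) were in the homo thymocyte list of 184 regions and 15 (22.7%, 13.3% to 34.7%) in the homo pre-B list of 24. None was in either WT Aiolos list, which held 431 regions in pre-B cells and 25 in thymocytes. Of the 5 named above, all but the one in Lmntd1 were in the homo Aiolos list of pre-B cells, and all but the one in Prkce in that of thymocytes.

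Weak homo-only regions recurred in the homo thymocyte lists in smaller shares. Strong shared regions were about as frequent in the WT as in the homo thymocyte Ikaros list. Of the 5066 homo-only regions with a fold under 10, 1177 (23.2%, 22.1% to 24.4%) were in the homo thymocyte Ikaros list and 589 (11.6%, 10.8% to 12.5%) in the WT one. Of the same 5066, 688 (13.6%) were in the homo and not the WT thymocyte Ikaros list, and 100 (1.97%) the reverse. In the thymocyte Aiolos lists, 89 of them (1.76%) were in that of homo, with 184 regions, and 0 in that of WT, with 25. Of the 750 shared regions with a fold of 10 or more, 382 (50.9%, 47.3% to 54.6%) were in the homo and 383 (51.1%, 47.4% to 54.7%) in the WT thymocyte Ikaros list, and 5 (0.667%) in the homo thymocyte Aiolos list. Both strong sets come from the same homo library and from a threshold set after the folds were seen. Their shares are given as a description only. By decile of the homo list, the share of homo-only regions found in homo thymocytes was 15.9% to 30.0% in the lowest 8 deciles, 65.1% in the ninth and 98.6% in the highest.

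**Figure D3:**
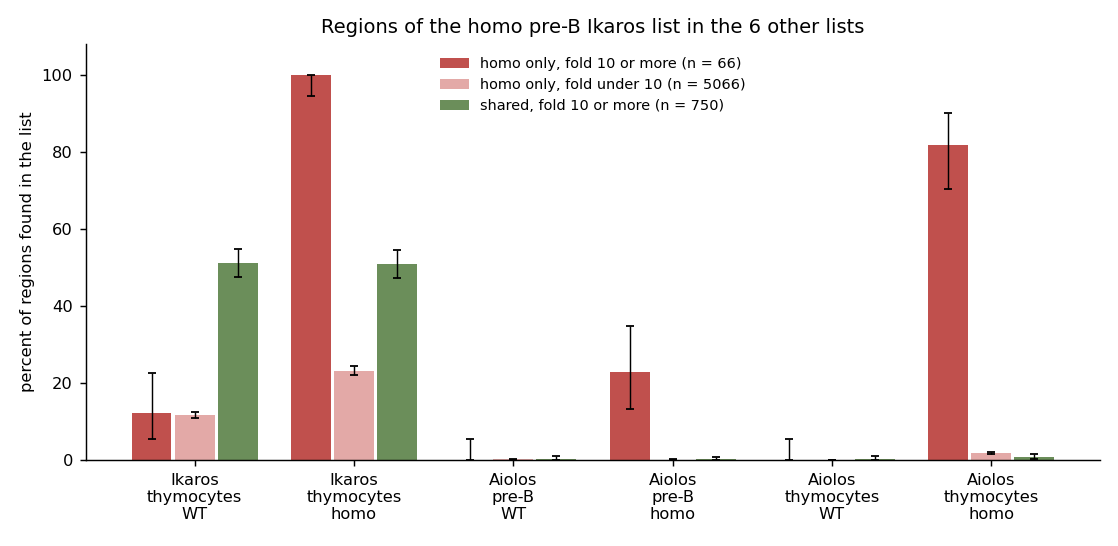
Bars give the percent of 3 sets of homo pre-B Ikaros regions that overlap a region of each of the other 6 lists, with 95% Clopper-Pearson intervals. The strong homo-only set stands at 100% for Ikaros and 81.8% for Aiolos in homo thymocytes, against 12.1% and 0.0% in WT thymocytes.

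Seen from the Aiolos lists, 157 of the 184 homo thymocyte Aiolos regions (85.3%, 79.4% to 90.1%) lay on homo-only Ikaros regions of pre-B cells and 15 (8.15%) on shared ones. In the homo pre-B Aiolos list 17 of 24 (70.8%, 48.9% to 87.4%) lay on homo-only Ikaros regions. In the WT pre-B Aiolos list 405 of 431 (94.0%, 91.3% to 96.0%) lay on no pre-B Ikaros region of either genotype. The shortness of these lists limits what their overlap can show.

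Shared and homo-only regions had similar shares within and between genes, and homo-only regions had the larger share close to starts. A region was counted at a start when it came within 1000 bases of a RefSeq transcription start, or, for genes with no stranded start in the reference, of either gene end. Of the shared homo-list regions 615 of 3471 (17.7%, 16.5% to 19.0%) lay at a start, and of the homo-only regions 1021 of 5125 (19.9%, 18.8% to 21.0%). At stranded starts alone the shares were 11.1% (10.1% to 12.2%) and 14.3% (13.4% to 15.3%). Within 5000 bases of a start the order turned, with 40.7% (39.1% to 42.4%) of the shared and 39.7% (38.4% to 41.1%) of the homo-only regions. Of the WT-only regions 16 of 194 (8.25%, 4.79% to 13.0%) lay at a start. Within genes away from starts lay 44.3% of the shared and 42.1% of the homo-only regions, and 38.0% of each lay between genes. From a homo-only region to the nearest shared one the median distance was 147 kb, and 181 of 5130 (3.53%) were within 5000 bases. No expected distance was computed for comparison.

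All chromosomes carried more regions in homo. The ratio of homo to WT regions ran from 2.09 on chromosome 3 to 2.61 on chromosome 13 among the autosomes. The X chromosome had 62 regions in WT and 115 in homo, a ratio of 1.85, and the lowest density after Y, 3.63 and 6.74 per 10 Mb. The autosomes had 8.61 to 21.6 per 10 Mb in WT and 22.3 to 55.3 in homo, with the highest on chromosome 11. The labels used here do not give the sex of the animals behind the ChIP libraries.

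Promoter letters differed between the classes. A promoter was put in a class when at least 150 of its 300 bases (250 before to 50 after the start) lay in a region. CCGGAA, searched with its reverse complement, was in 186 of 407 homo-only promoters (45.7%, 40.8% to 50.7%), in 29 of 116 shared promoters (25%, 17.4% to 33.9%), in 14.4% of the 32077 promoters with no region and in 14.9% of all 32817. TGGGAA was in 22.9% (18.9% to 27.2%), 27.6% (19.7% to 36.7%), 25.6% and 25.6% of the same sets. GGGAA, which TGGGAA contains, was in 74.4% (69.9% to 78.6%), 74.1% (65.2% to 81.8%), 62.5% and 62.7%. The shorter core was thus more frequent under both classes than in promoters with no region, while the intervals of the longer one include the share of promoters with no region. GGGCGG, the core of SP and KLF factor sites, was in 72.7% (68.1% to 77.0%), 56.9% (47.4% to 66.1%), 34.9% and 35.6%.

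Base composition moved with these classes. The median GC content was 64.0% in homo-only promoters, 58.2% in shared ones and 52.7% in those with no region. In the middle GC range of 3 ranges that hold about equal numbers of promoters (48.3% to 58.3%), CCGGAA was in 48.1% of 77 homo-only, 16.7% of 42 shared and 14.6% of 10767 other promoters. In the highest GC range it was in 45.8% of 319, 38.6% of 57 and 25.1% of 10428. GGGCGG was in 53.2%, 47.6% and 24.9% in the middle range and in 79.3%, 80.7% and 77.3% in the highest. TGGGAA was in 20.8%, 33.3% and 29.8% in the middle range and in 23.5%, 22.8% and 19.7% in the highest. GGGAA was in 79.2%, 71.4% and 67.8% in the middle range and in 74.0%, 78.9% and 63.5% in the highest. In the lowest GC range GGGAA was in 54.5% of 11 homo-only, 64.7% of 17 shared and 56.2% of 10882 other promoters. A match is a run of letters and no evidence of a bound factor.

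**Figure D4:**
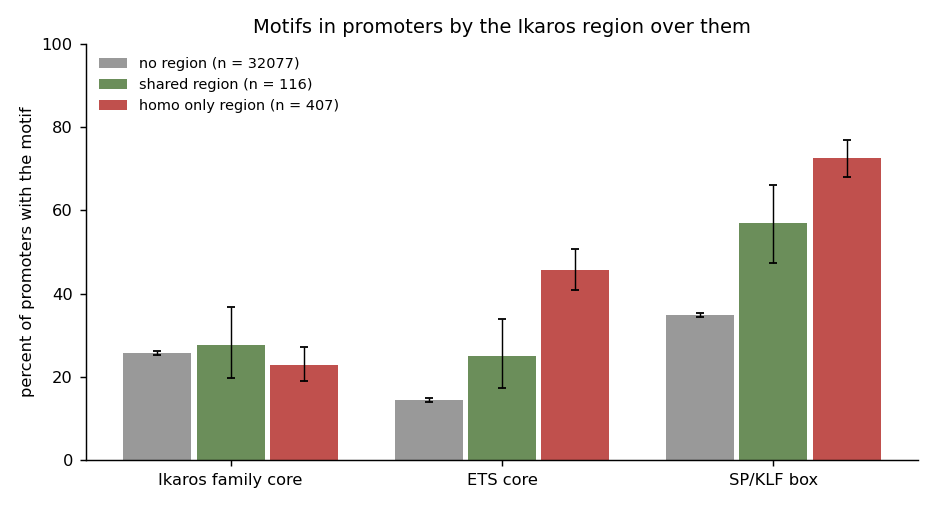
Bars give the percent of promoters that hold the core letters of each of 3 motif families on either strand, by the Ikaros region over the promoter, with 95% Clopper-Pearson intervals. The ETS core is in 45.7% of homo-only, 25% of shared and 14.4% of uncovered promoters, while the Ikaros core is between 22.9% and 27.6% in the 3 sets.

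Among 21887 protein-coding genes, 441 (2.01%) had a shared region at the start, 856 (3.91%) a homo-only region and no shared one, and 9 a WT-only region. A region in the gene or within 5000 bases of it was found for 9.23% in WT and 20.0% in homo, and a homo-only region for 13.5%. The genes with the most homo-only regions were Lrmda, a long gene of melanocyte differentiation with 10 (2 regions in WT, 12 in homo), Acoxl with 7, and Ebf1 and Prkce with 6 each. Ebf1 encodes a factor that specifies the B lineage. It had 6 regions in WT, with folds up to 7.75, and 12 in homo, with folds up to 9.58, and each WT region of Ebf1 had a homo partner. These genes are long, which gives room for more regions.

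The gene lists of the B lineage had more members with a region in homo than in WT. The counts below are of genes with a region in the gene or within 5000 bases, against the 9.23% in WT and 20.0% in homo of all protein-coding genes. Protein-coding genes with such a homo region had a median length of 36.8 kb, against 16.8 kb for those with no region at the start. The list medians were 46.7 kb for B lineage factors, 16.5 kb for the pre-B cell receptor list and 3.15 kb for ribosomal proteins. The part of gene length in the list shares was not tested. Of 20 B lineage transcription factors 8 (40.0%) had one in WT and 15 (75%) in homo. The strongest was in Pax5, the factor that fixes B cell identity: chr4:44670746-44671466, with a fold of 20.4 and rank 19 in WT and 27.7 and rank 10 in homo. Runx3, a Runt family factor, had 13.6 and 14.9 at a start (chr4:135152178-135154384), Ets1 8.48 and 8.63, and Irf4 6.54 and 7.47. Spib, an ETS family factor of B cells, had only a homo-only region at its start (fold 4.54), and Foxo1, Runx1, Myb, Mef2c, Bcl11a and Sox4 had only homo-only regions, with folds from 3.2 to 4.17. Id2, Id3, Irf8, Spi1 and Tcf3 had none.

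Of 18 genes of the pre-B cell receptor and its signalling, 9 (50%) had a region in WT and 15 (83.3%) in homo. Cd22, an inhibitory co-receptor, had one over its start (chr7:30878545-30879313) with 21.8 and rank 12 in WT and 18.7 and rank 102 in homo. Plcg2, a phospholipase of the pathway, had 11.2 and 11.4, and Lyn, a kinase, 9.22 and 10.4. Igll1, a surrogate light chain gene, had a homo-only region beside its start (5.04), Cd79a one of 3.76 nearest to the start of Arhgef1, and Syk, the proximal kinase, one of 4.62. Ranks are places in lists of 3683 and 8609 regions and show no change between genotypes.

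The other lists were these. V(D)J recombination and end joining genes had regions in 3 of 14 in WT and 5 of 14 in homo, among them Rag1 (4.21 and 4.55) and Atm (6.92 and 8.4). IL-7 and JAK-STAT signalling genes had 3 and 6 of 13, with Il7r, the IL-7 receptor chain, at 7.2 in WT and 10.5 in homo over its start, and Socs1 homo only (6.47). Adhesion and integrin genes had 5 and 9 of 17, with Itga5, an integrin chain, at 16.0 and 25.2 (chr15:103347138-103348016). Cell cycle genes had 1 and 7 of 21: Cdk6 had 3 regions in both genotypes, and Cdk1, Cdkn1b, Myc, Cdk2, Ccnd3 and E2f2 had homo-only regions with folds from 3.24 to 5.05. Glucose uptake and glycolysis genes had 2 and 4 of 12, mature B cell genes 2 and 4 of 14, NuRD and SWI/SNF genes 1 and 2 of 15, T lineage genes 1 and 1 of 15, and cytosolic ribosomal protein genes 6 and 10 of 78. In the Ikaros family itself, Ikzf4 had a region in both genotypes (10.9 and 11.5), Ikzf3 had 3 homo-only regions (3.59 beside a gene end, 4.38 and 5.24), and Ikzf1, Ikzf2 and Ikzf5 had none.

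The RNA of sorted pre-B cells was then read for the genes at the regions. The 9 libraries held 4265056 to 6757040 gene counts except homo replicate 3, with 1888871. Homo replicate 3 also stood apart on the first principal component of the 9 libraries (54.1% of the variance), at 72.1 against 19.6 and 9.39 for the other homo libraries, -42.1 to -37.1 for WT and -10.0 to 25.7 for het, where het replicate 2 was the highest. All 3 WT libraries and 1 of the 3 homo libraries were XX by Xist and Y-linked genes, and 2 homo libraries were XY. The labels do not say that the libraries came from separate mice, so p-values measure the spread between these samples, which may be technical. Of 8 pre-B markers all were tested and their summed level was 2448 to 2682 CPM (counts scaled to library size) in WT and 2552 to 3953 in homo. The 2 of 6 myeloid markers that were tested, Lyz2 and Itgam, summed to 52.7 to 55.6 CPM in WT and 113 to 149 in homo. The plasmacytoid dendritic cell markers (3 of 5 tested) summed to 319 to 341 and 366 to 510, the single T lineage marker tested to 4.61 to 7.38 and 0.0 to 11.7, the single stromal one to 4.17 to 5.0 and 3.47 to 10.8, and no erythroid marker passed the filter. The part of the myeloid signal in the RNA results was not tested.

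Of 11411 genes tested with edgeR's quasi-likelihood test, 1811 (15.9%) differed between homo and WT at an adjusted p under 0.05, 847 (7.42%) higher and 964 (8.45%) lower in homo. Genes with a homo-only region at the start were called about as often as all genes: 122 of 736 (16.6%), 43 higher (5.84%) and 79 lower (10.7%), with a median log2 fold change of -0.007. Genes with a shared region at the start were called in 68 of 311 (21.9%), 28 higher and 40 lower, with a median of 0.029. All genes had a median of 0.018. Of the 5 tested genes with a WT-only region at the start 1 was called, and of the 10332 with none 15.6% were. The gene counts fell with fewer WT libraries, from 122 to between 66 and 72 for homo-only and from 68 to between 41 and 44 for shared starts when any 1 of the 3 WT libraries was left out, and all tested genes fell from 1811 to between 1055 and 1157. With a term for sex 1381 genes were called in all (12.1%), 54 with a shared (17.4%) and 78 with a homo-only start (10.6%). Without homo replicate 3, 2097 genes were called in all (18.1%), 81 with a shared (25.7%) and 145 with a homo-only start (19.6%).

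Genes with a region in the body but none at the start were called more often, with either class: 170 of 628 (27.1%) with a shared region and 171 of 619 (27.6%) with a homo-only one, against 14% of 9061 genes with no region. Calls were in both directions, 91 higher and 79 lower for shared and 87 and 84 for homo-only regions. These genes were longer, with medians of 95.2 kb and 69.3 kb against 19.7 kb for genes with no region, at similar levels (44.8, 42.9 and 43.9 CPM in WT). The part of gene length in the difference was not tested.

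At shared starts the genes with the largest falls included Adam19, a membrane metalloprotease. It had 535, 557 and 544 CPM in WT, 42.4, 42.5 and 22.7 in homo, and het libraries between 156 and 219. The 3 genotypes do not overlap, and homo was lower than WT by a log2 fold change of -3.86 ± 0.22 (SE, edgeR adjusted p = 8.5e-06). Its start lies by a region with folds of 6.46 in WT and 8.11 in homo. Gdf11, a ligand of the TGF-beta family with a region of 16.7 in WT and 22.2 in homo beside its start, had 9.06, 7.49 and 8.83 CPM in WT and 1.1, 1.08 and 0.599 in homo (-3.02 ± 0.27, edgeR adjusted p = 7.08e-05). Cyth4, an exchange factor for ARF GTPases, had 28.9 to 38.8 CPM in WT and 1.8 to 5.24 in homo (-3.03), and only its homo region, which overlaps a WT region, came within 1000 bases of the start. Tmem59l (2.54 to 3.39 against 0.0 to 0.462 CPM) and Rasl10a, a Ras-like GTPase (5.3 to 6.25 against 0.0 to 1.39 CPM), were the other 2. Tmem59l lost its call with a term for sex (adjusted p = 0.0566).

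The genes with the largest rises at shared starts were Ccdc122, Tmem255a, Maf, Rragd and Ctnnd1. Rragd, a GTPase that signals amino acids to mTORC1, had 26.8, 32.1 and 31.8 CPM in WT, a mean of 146 ± 10.6 (SD, n = 3; lowest 140) in homo and 71.7 to 79.3 in het. Homo was higher by a log2 fold change of 2.27 ± 0.12 (SE, edgeR adjusted p = 6.54e-06), with het between the 2 and no overlap. Its start lies by a region with folds of 7.82 in WT and 7.53 in homo. Ctnnd1, the gene of p120 catenin, which binds cadherins, had 10.8, 10.3 and 11.9 CPM in WT and 50.5, 55.0 and 35.3 in homo (2.12 ± 0.18, edgeR adjusted p = 6.15e-05), with a region of 8.04 in WT and 15.6 in homo over a start. Maf, a bZIP transcription factor with the region at a gene end, had 7.63 to 13.2 CPM in WT and 39.4 to 99.4 in homo, Tmem255a 7.32 to 10.4 and 48.7 to 105, and Ccdc122 0.642 to 0.953 and 3.94 to 15.0. In all 5 genes, chosen for their change in these libraries, the lowest homo library was above the highest WT library.

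At homo-only starts the largest rise was in Sema4g, a semaphorin, with 2.54, 1.96 and 1.93 CPM in WT, 162, 139 and 79.0 in homo and 62.7 to 120 in het (5.89 ± 0.38, edgeR adjusted p = 1.48e-05). The region at its start (chr19:44990188-44990544) had a fold of 5.57 and rank 3000. Il5ra, the IL-5 receptor chain, had 10.0, 11.8 and 11.2 CPM in WT and 71.9, 61.5 and 76.0 in homo (2.66 ± 0.24, edgeR adjusted p = 6.76e-05), with a region of fold 3.79. In both genes, chosen in the same way, the genotypes WT and homo do not overlap. Hspa1a and Hspa1b, near-identical genes of inducible HSP70 whose reads may be split between them, had 0.0 to 0.178 and 1.61 to 2.25 CPM in WT and 2.05 to 18.6 and 16.1 to 61.1 in homo. The highest value of both was in the shallow homo replicate 3, and Hspa1a lost its call with a term for sex (adjusted p = 0.0876) and without any 1 of the WT libraries (0.0584 to 0.0729). Slc47a1, a transporter with the region at a gene end, had 0.159 to 0.321 CPM in WT, 4.88 to 6.18 in het and 1.08 to 2.21 in homo, so that het was the highest. The homo-only class covers the start only. WT regions lay in the gene or within 5000 bases for Hspa1b (2 regions, top fold 20.5), Il5ra (4.07) and Slc47a1 (3.98). Sema4g and Hspa1a had no WT region there.

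Falls at homo-only starts were led by genes at weak and at stronger regions alike. Polm, a DNA polymerase of end joining, had 297, 294 and 267 CPM in WT, 42.9, 40.8 and 23.9 in homo, and 64.6 to 98.8 in het. The change was -2.94 ± 0.21 (SE, edgeR adjusted p = 2.3e-05), with a region of fold 3.52 near the start. Slc36a1, a lysosomal amino acid transporter, had 58.0, 67.4 and 69.3 CPM in WT and 6.31, 9.25 and 10.8 in homo (-2.95 ± 0.20, edgeR adjusted p = 1.83e-05), with a region of fold 8.49 over the start. Dgat1, an enzyme of triglyceride synthesis, had 22.3 to 30.7 CPM in WT and 2.39 to 4.78 in homo, at a region of fold 8.76 over a gene end. Ndfip2, an adaptor of ubiquitin ligases (35.7 to 37.5 against 3.31 to 6.58 CPM, fold 4.47), and Lrrc10b (20.8 to 21.0 against 0.0 to 2.77 CPM, fold 3.88) completed the 5. In all 5, chosen in the same way, the highest homo library was below the lowest WT library. Of these 5, only Slc36a1 also had a WT region in the gene or within 5000 bases (fold 4.88). Gfra2, a GDNF family receptor, was the only called gene with a WT-only region at the start, here at a gene end (fold 3.64). A homo-only region of fold 5.95 also lay in the gene or within 5000 bases of it. Gfra2 had 75.9 to 93.3 CPM in WT and 24.6 to 58.7 in homo (-1.04 ± 0.29, edgeR adjusted p = 0.0368). It lost its call with a term for sex (0.109), without any 1 of the WT libraries (0.0712 to 0.114) and without homo replicate 1 (0.0774).

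**Figure D5:**
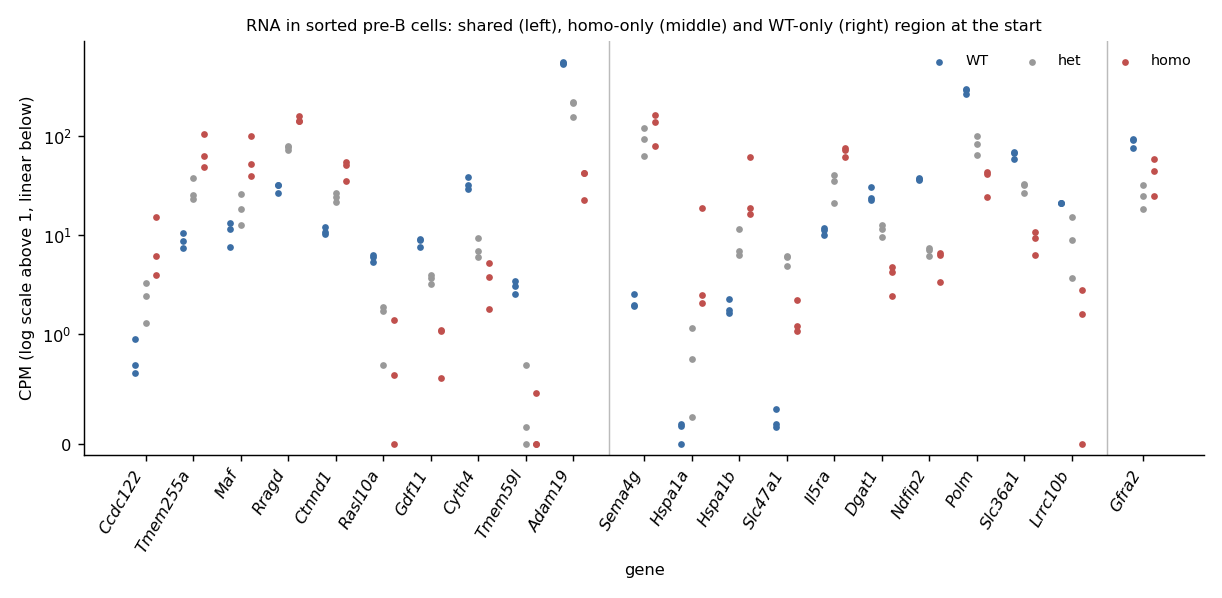
CPM of the 21 named genes (x axis) in each of 9 pre-B RNA libraries (y axis, log scale above 1 and linear below), blue for WT, grey for het and red for homo, by the class of region at the start. Homo and WT points do not overlap for any of the 21 genes. The genes were chosen by their calls and changes in these same libraries, so this separation follows largely from the choice. The share of all tested genes without overlap is not given here.

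Genes of the lists showed calls with and without regions, to be read against the 15.9% of all tested genes that were called (7.42% higher, 8.45% lower). Of the B lineage factors 3 of 20 tested were higher (Foxo1, Mef2c, Runx1) and 3 lower (Bcl11a, Id3, Spib), with a list median of -0.03. The 3 lower genes kept their call under all 14 alternatives, whereas the 3 higher ones lost it with a term for sex (edgeR adjusted p = 0.127 for Foxo1, 0.185 for Mef2c and 0.0581 for Runx1) and without WT replicate 1 (0.0865 to 0.124) or 2 (0.0712 to 0.116), and Foxo1 (0.122) and Mef2c (0.0955) also without WT replicate 3. Spib fell from 564 ± 18.4 to 336 ± 26.5 CPM (mean ± SD, n = 3; -0.75 ± 0.11, edgeR adjusted p = 0.00117) and Pax5, with the strongest region, had 206 ± 5.91 and 177 ± 2.79 (edgeR adjusted p = 0.123). Of the pre-B cell receptor list 1 of 18 was higher and 4 lower (Dok3, Inpp5d, Pik3ap1, Ptpn6), where Dok3 lost its call with a term for sex (0.099) and Dok3, Inpp5d and Ptpn6 without WT replicate 2 (0.0573 to 0.0681). The higher one was Cd22, from 258 ± 4.66 to 451 ± 34.3 CPM (0.81 ± 0.11, edgeR adjusted p = 0.000667). Pik3ap1, an adaptor with a homo-only region beside its start (fold 3.5), fell from 379 ± 17.8 to 224 ± 5.23 CPM (-0.76 ± 0.09, edgeR adjusted p = 0.000494).

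Of the mature B cell genes 7 of 14 were lower and none higher by edgeR, against 8.45% and 7.42% of all tested genes, with a median of -0.79, and only 1 of these 7 had a region in the gene or within 5000 bases. Fcer2a, the low-affinity IgE receptor, had 20.9 ± 4.14 CPM in WT and 0.209 ± 0.241 in homo. Its homo region of fold 5.17 is nearest to the start of Gm45231. That region is shared, and the WT region it overlaps does not come within 5000 bases of the gene. Cd40, Tnfrsf13c, Ms4a1, S1pr1, Ccr7 and Ciita were lower with no region. Called in the remaining lists were Xrcc5 higher and Polm lower of 14 V(D)J genes, Ccnb1, Ccnd2, Cdk4 and Cdk6 higher of 21 cell cycle genes, and Il2rg, Socs2 and Socs3 higher and Stat5a lower of 13 IL-7 and JAK-STAT genes. Of 17 adhesion genes 5 were higher, among them Cd44, Ctnnd1, Itga6 and Itgb1, and Ctnna1 and Vcl were lower, of 12 glucose genes Hk1 and Insr were lower, of 15 NuRD and SWI/SNF genes Mta1 was higher, and of 4 tested T lineage genes Lck was lower. Of these, Polm, Il2rg, Socs2, Ctnnd1, Ctnna1, Hk1 and Insr kept their call under all 14 alternatives, as did the mature B cell genes other than Ciita (0.119 with a term for sex). With a term for sex Ccnb1 (edgeR adjusted p = 0.224), Cdk4 (0.17), Cdk6 (0.0781), Cd44 (0.145), Itga6 (0.179), Itgb1 (0.195) and Lck (0.0763) lost theirs. Cdk4 lost its call in 12 of the 14 alternatives, Itga6 in 11, Ccnb1 in 7 and Cdk6 in 5. Ccnd2 and Mta1 lost theirs in 3 each, Xrcc5 in 2, Socs3 in 5, Stat5a in 4 and Vcl in 7, none of these with the term for sex. None of 74 tested ribosomal protein genes and none of 4 tested Ikaros family genes was called by edgeR. Ikzf1 had 781 ± 27.7 CPM in WT and 941 ± 274 in homo (edgeR adjusted p = 0.392) and Ikzf3 537 ± 17.4 and 521 ± 80.2 (0.853), so a difference in RNA of the factor that was precipitated was not detected.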

How the data were processed

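Ikaros ChIP of cultured pre-B cells was deposited as 1 broad peak list per genotype, and RNA of sorted pre-B cells as 1 table of counts per library. MACS2 2.1.1, HISAT2 2.1.0, STAR 2.7.0 and the build mm10 are named, with no role for each, per the submitters' processing notes. In each list the authors give per region a score, a fold enrichment, and a −log10 p and −log10 q value. The control and threshold of each list, and the ChIP depth, are not given in the sources used here. The deposited RNA values are whole-number counts per gene, with 31.66% to 40.15% of a library's entries under no feature and 0.73% to 0.8637% ambiguous. The 5 entries that name no gene were left out of library sizes and tests.

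Regions were matched by an overlap of at least 1 base. Genes came from RefSeq (GRCm38.p6), where 17492 of 21887 protein-coding genes (79.9%) had a stranded start. For the rest either gene end was used. Of 24459 symbols of the count tables, which list the same genes, 24342 (99.5%) matched. A start was reached within 1000 bases and a gene within 5000 bases. Shares carry exact 95% Clopper-Pearson intervals. RNA was tested with edgeR 4.0.16 in R 4.3.3 (filterByExpr, TMM, robust quasi-likelihood) over 9 pre-B libraries, homo against WT, with Benjamini-Hochberg adjustment over 11411 genes and a threshold of 0.05. Other steps used Python 3.11.15, pandas 2.3.3 and SciPy 1.17.1, and the RNA and overlap steps were tested on simulated data. Alternatives were DESeq2 1.42.0, other scaling and filters, a replicate block, a sex term, leaving out each library, and other overlap, threshold and start rules.

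Named regions were the 5 of highest fold in each class. Further homo-only regions at starts and the shared regions with large shifts in rank were named after their values were seen. Named RNA genes were the 5 with the largest change in each direction among called genes with a shared or a homo-only region at the start, and each called gene with a WT-only one. List members were named where a region or a call fell on them. The members and lists were chosen with earlier results of these data known. The fold of 10, the imprinted genes and the printed promoters were chosen after values were seen. RNA of pre-pro-B cells and the input samples were not analysed here. Some results for single list members are not reported here.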

Additional observations from a re-analysis of the deposited data

How the results depend on the processing

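The cuts on q and on fold were made in both lists, and the cut on length in the homo list, before matching. A region can then be counted as homo only or WT only because its partner was cut. With a −log10 q of at least 5, 5278 homo regions were left, 2778 of them homo only. Against the full WT list, 3133 of the 5278 (59.4%, 58.0% to 60.7%) had an overlap. With a fold of at least 5, 2031 WT and 3862 homo regions were left, with 1966 homo only, 127 WT only and 93.7% of WT regions shared. Against the full lists, 1099 homo-only and 19 WT-only regions had a fold of 5 or more. With an overlap of at least 50% of both regions, 593 regions were WT only and 83.9% of WT regions shared. With the homo list reduced to the length of the WT list, 964 regions were homo only, 953 WT only and 74.1% of WT regions shared, where equal lengths fix the first 2 counts to be close. The shares of shared and homo-only regions at a start were 12.2% and 16.1% within 500 bases, 40.7% and 39.7% within 5000 bases, where the order turned, 12.3% and 15.1% for protein-coding genes and 11.1% and 14.3% for stranded starts, an alternative chosen after seeing the data. Within 5000 bases of a start, 151 genes with a shared and 192 with a homo-only region were called.

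The replicate numbers did not pair the samples, since the correlations of same-numbered deviations were 0.16, -0.029 and 0.136. The replicate block gave 1125 calls in all (9.86% of tested genes), 42 at shared (13.5%) and 71 at homo-only starts (9.65%). A term for sex gave 1381 (12.1%), 54 (17.4%) and 78 (10.6%), and DESeq2 2232 (19.6%), 81 (26.0%) and 156 (21.2%). Leaving out 1 library gave 1055 to 2097 (9.11% to 18.1%), 41 to 81 (13.0% to 25.7%) and 66 to 145 (8.93% to 19.6%). Of 58 named genes, 35 kept their call under all 14 alternatives and none changed direction. One library per genotype and the unknown ChIP depth limit the region counts.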

Other observations

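Values for 20 imprinted genes, which are expressed from 1 parental copy, are given as a description only. The list was chosen after regions near several of them were seen, so its shares are no evidence about imprinted genes as a group. A homo region lay in the gene or within 5000 bases for 16 of the 20 (80.0%) and a WT region for 7 (35%). The highest region was shared for 7 genes and homo only for 9. Plagl1, a zinc finger gene, ranked 2736 by fold among the 3683 WT regions and 335 among the 8609 homo regions. Grb10, an adaptor that inhibits insulin receptor signalling, ranked 2683 and 675, and Nnat, the gene of neuronatin, 1281 and 195. Zrsr1, a splicing factor gene, ranked 3037 and 698. Homo-only regions lay at Nap1l5 (fold 8.25), Mcts2 (7.47), Gnas (6.56), Mest (5.94), Snrpn (4.72), Peg10 (4.56), Peg13 (4.55), Slc38a4 (4.14) and Peg3 (4.13). No region of either list lay at H19, Kcnq1ot1, Meg3 or Zdbf2.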
